A study of Homo sapiens with 4 samples.

Results

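Lysosomal cathepsins are the proteases that break down proteins inside lysosomes, and 10 of their genes (CTSA, CTSB, CTSC, CTSD, CTSH, CTSK, CTSL, CTSS, CTSZ and CTSO) were compared between DZNep and DMSO. The members were chosen by gene symbol, with earlier results of these data known, from probe sets annotated to exactly 1 gene. All 10 were found among 18377 genes tested, each with 1 probe set. RNA was measured on 4 Affymetrix whole-transcript arrays in MOLM-14, a human cell line derived from acute myeloid leukemia that resembles monocytes. The DZNep group received 2 µM DZNep for 24 h (2 samples), and the DMSO group received the solvent alone (2 samples). DZNep, 3-deazaneplanocin A, blocks S-adenosylhomocysteine hydrolase and thereby methyltransferase reactions, and it is widely used to deplete EZH2. All samples are of a single cell line and the titles call them biological replicates. Whether they came from separate cultures is not stated, and every p-value below therefore rests on a spread between samples that may be technical.

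Cathepsins are made as inactive precursors in the endoplasmic reticulum, tagged with mannose 6-phosphate, carried to acidic endosomes and lysosomes, and activated there by removal of a propeptide. Most belong to the papain family of cysteine proteases, whereas cathepsin D is an aspartic protease and cathepsin A a serine carboxypeptidase. Monocytes and macrophages are rich in these enzymes, which digest engulfed material, prepare peptides for MHC class II and activate other proteases. Cystatins hold the cysteine cathepsins in check.

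Values are log2 of the deposited intensity, a log2 fold change is DZNep minus DMSO, and a gene is called when its limma p, adjusted over all genes tested by the Benjamini-Hochberg method, is under 0.05. The median log2 intensity over genes was between 7.44 and 7.46 on all 4 arrays. Over genes, log2 values of the DZNep arrays differed from each other with an SD of 0.14, those of the DMSO arrays with an SD of 0.20, and those of a DZNep and a DMSO array with one of 0.27 to 0.32. Of 6 monocytic markers measured, 5 (LYZ, SPI1, CD68, CSF1R and ITGAM) lay above the array median on every array, and CD14 did not. CD33 and FCGR1A had no probe set with a single symbol and were not used. Of the cathepsins, CTSL and CTSO lay below the array median on every array. CTSK did so on both DMSO arrays only, and CTSH on both DZNep arrays only. The precision of every value is limited by the number of arrays.

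In the DZNep samples 4 of the 10 cathepsin genes were higher, 1 was lower, and 5 were not called. CTSK, the bone and matrix collagenase, was 2.61-fold higher, and CTSA, CTSD and CTSB were 1.95-fold, 1.54-fold and 1.44-fold higher. CTSH, an aminopeptidase, was 1.59-fold lower. Over all genes, 3.62% were called higher, 6.68% lower and 10.3% in either direction. Both DZNep arrays lay above both DMSO arrays for 6 cathepsins and below both for 1, beside 25.9% and 23.9% of all genes (49.7% in either direction). The median log2 fold change of the 10 cathepsins was 0.25, beside 0.02 over all genes. Since the members were chosen with earlier results of these data known, these comparisons with all genes are descriptive.

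**Figure D1:**
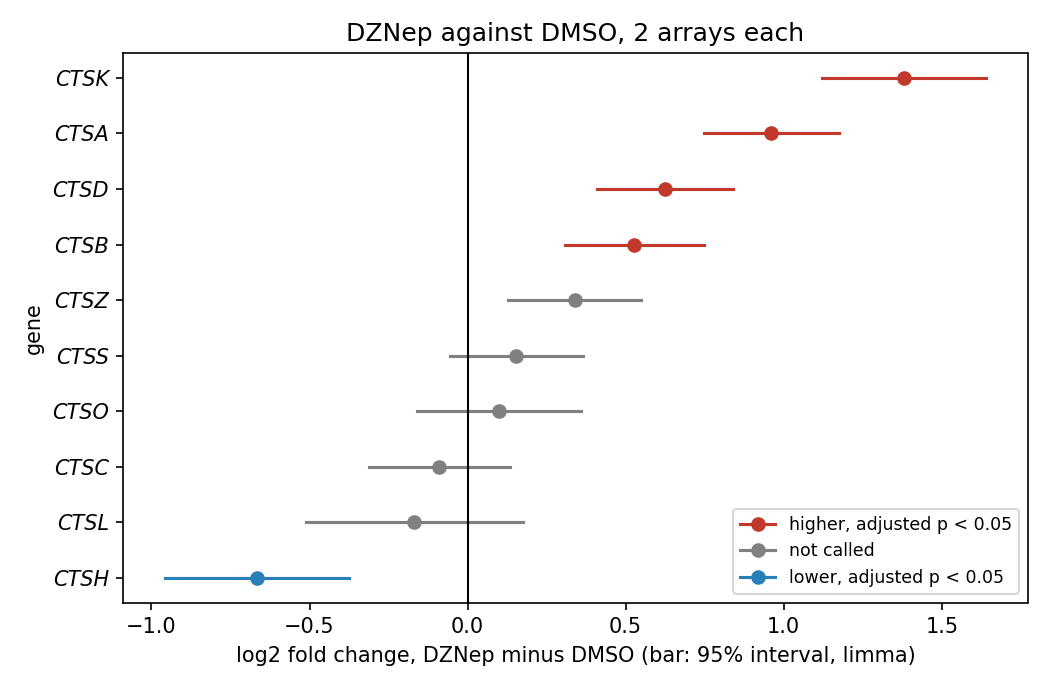
Log2 fold change (DZNep minus DMSO, x axis) of each cathepsin gene (rows), with the 95% interval from limma as a bar, from 2 DZNep and 2 DMSO arrays. CTSK lies farthest right at 1.38, CTSH farthest left at −0.67, and the intervals of CTSS, CTSO, CTSC and CTSL cross 0.

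CTSA encodes the lysosomal carboxypeptidase known as protective protein, which shields neuraminidase 1 and beta-galactosidase from degradation. Its log2 intensity was 10.41 and 10.42 on the DZNep arrays, against 9.41 and 9.50 on the DMSO arrays. The DZNep arrays were nearly equal and both lay about 1 log2 unit above the DMSO arrays. The log2 fold change was 0.96 (limma, SE 0.09, adjusted p = 0.000396), and 0.365% of all genes had a larger one. CTSA overlaps PLTP in the RefSeq annotation, and the value of PLTP was −0.23 on the log2 scale (limma adjusted p = 0.177). Among the other cathepsins, CTSD overlaps PRADX and CTSK overlaps UBE2D3P3, and the values of these overlapping genes were not examined.

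CTSD encodes the main aspartic protease of lysosomes, which also processes prosaposin. It read 10.49 and 10.54 on the DZNep arrays, against 9.94 and 9.84 on the DMSO arrays. The groups did not overlap, and the gap was several times the difference within either group. CTSD had a log2 change of 0.62 (limma, SE 0.10, adjusted p = 0.00365).

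The sequences upstream of the start were compared because CTSA and CTSD rose and CTSH fell. The RefSeq promoter table (GRCh38.p14) held 6 of the 10 cathepsins, CTSA, CTSC, CTSD, CTSH, CTSL and CTSZ. CTSK and CTSB, also called higher, were absent from it, so their promoters were not searched. The 250 bases before each gene's start are shown 5′ to 3′ on the gene's strand for CTSA, CTSD and CTSH. Capitals mark the E-box CACGTG, the core letters bound by TFEB and its relatives, and the GC box GGGCGG or its reverse complement CCGCCC.
CTSA (GRCh38.p14, chr20:45891085-45891334, plus strand): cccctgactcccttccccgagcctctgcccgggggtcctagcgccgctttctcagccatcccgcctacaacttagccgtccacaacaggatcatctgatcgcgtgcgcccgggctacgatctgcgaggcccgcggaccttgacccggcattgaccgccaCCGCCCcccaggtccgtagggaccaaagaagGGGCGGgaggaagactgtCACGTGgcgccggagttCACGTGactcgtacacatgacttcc
CTSD (GRCh38.p14, chr11:1763928-1764177, minus strand): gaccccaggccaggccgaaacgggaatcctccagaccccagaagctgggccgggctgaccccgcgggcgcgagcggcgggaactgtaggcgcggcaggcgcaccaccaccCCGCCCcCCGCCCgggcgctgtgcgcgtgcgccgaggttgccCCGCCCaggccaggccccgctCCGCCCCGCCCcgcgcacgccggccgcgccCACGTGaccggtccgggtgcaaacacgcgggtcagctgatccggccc
CTSH (GRCh38.p14, chr15:78945047-78945296, minus strand): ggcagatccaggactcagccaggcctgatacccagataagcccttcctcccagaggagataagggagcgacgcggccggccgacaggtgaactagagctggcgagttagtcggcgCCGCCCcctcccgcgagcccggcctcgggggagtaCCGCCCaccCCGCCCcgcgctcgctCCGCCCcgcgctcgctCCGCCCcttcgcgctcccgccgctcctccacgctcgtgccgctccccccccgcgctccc
The CTSA window holds CACGTG at 2 places, which begin 42 and 25 bases before the start, and the CTSD window holds it at 1 place, 47 bases before the start. CTSH has no match, nor have CTSC, CTSL and CTSZ. Searched on both strands in windows of the same length, CACGTG was present in 6.34% of 35116 promoters and in 2 of 6 cathepsin promoters. The longer TCACGTGA, which contains CACGTG, was present in 0.854% of all promoters and in CTSA alone of the 6. The GC box was present in all 6, beside 42.6% of all promoters, with 2 matches in CTSA, 5 in CTSD and 5 in CTSH. GAGGAA, the core letters of PU.1 sites, was found in CTSA, CTSH and CTSL and in 23.6% of all promoters, and TATAAA in 0 of the 6 and in 10.7%. These matches describe the letters in the windows and do not show binding.

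Among the cysteine endopeptidases, CTSK and CTSB rose, and CTSS and CTSL were not called. CTSK, known for collagen breakdown by osteoclasts, read 8.14 and 8.39 on the DZNep arrays, against 6.96 and 6.80 on the DMSO arrays. The lower DZNep array was more than 1 log2 unit above the higher DMSO array. The log2 fold change was 1.38 (limma, SE 0.11, adjusted p = 0.0002), and 0.0925% of all genes had a larger one.

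CTSB, an abundant cathepsin with both endopeptidase and carboxypeptidase activity, read 10.91 on each DZNep array, against 10.44 and 10.31 on the DMSO arrays. Both DZNep values lay above both DMSO values. Its log2 fold change was 0.53 (limma, SE 0.10, adjusted p = 0.00902).

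CTSS trims the MHC class II invariant chain in antigen-presenting cells and stays active at neutral pH. It read 9.52 and 9.47 on the DZNep arrays, against 9.35 and 9.33 on the DMSO arrays. The groups did not overlap, but the log2 fold change of 0.15 missed the threshold (limma adjusted p = 0.405, 95% interval −0.06 to 0.36). CTSS and CTSK are neighbours on chromosome 1, and the interval of CTSS ends below that of CTSK, which ran over 1.12 to 1.64. The difference between both genes was not tested.

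CTSL, a broad endopeptidase of lysosomes, read 6.56 and 6.93 on the DZNep arrays, against 7.09 and 6.73 on the DMSO arrays. The groups overlapped and each group's arrays were farther apart than the group means. Its log2 fold change was −0.17 (limma adjusted p = 0.616, 95% interval −0.51 to 0.17), and it was 0.02 without DZNep replicate 1 and 0.01 without DMSO replicate 1.

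**Figure D2:**
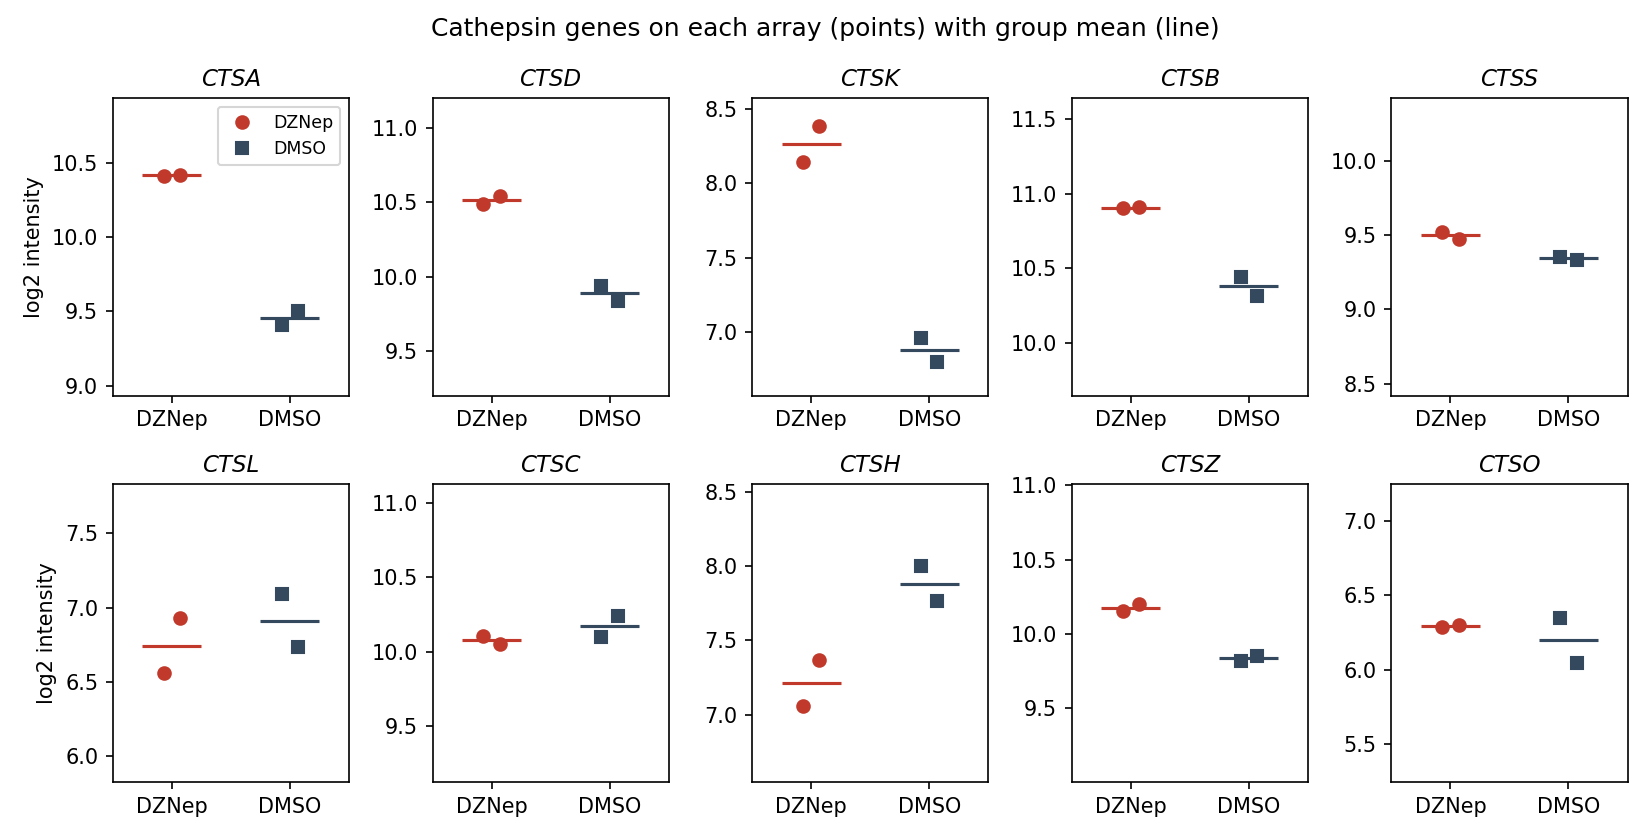
Log2 intensity (y axis, each panel 2 log2 units high but at its own level) of each cathepsin gene on the 2 DZNep and 2 DMSO arrays (points), with group means as lines. CTSA, CTSD, CTSK, CTSB, CTSS and CTSZ have both DZNep points above both DMSO points, CTSH has both below, and the groups of CTSL, CTSC and CTSO overlap.

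Among exopeptidases of the papain family, CTSH was called lower, and CTSZ and CTSC were not called. CTSH, an aminopeptidase that also matures surfactant protein in lung, read 7.06 and 7.37 on the DZNep arrays, against 8.00 and 7.76 on the DMSO arrays. Both DZNep values lay below both DMSO values, with more spread within groups than for CTSA or CTSB. CTSH fell by 0.67 on the log2 scale (limma, SE 0.13, adjusted p = 0.0118). The call ended without DMSO replicate 1, at −0.55 (limma adjusted p = 0.067).

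CTSZ, a carboxypeptidase also called cathepsin X, read 10.15 and 10.20 on the DZNep arrays, against 9.82 and 9.85 on the DMSO arrays. The groups did not overlap, and its log2 fold change of 0.34 narrowly missed the threshold (limma, SE 0.09, adjusted p = 0.0504). The 95% interval was 0.13 to 0.55. CTSZ passed under quantile normalization (log2 fold change 0.44, limma adjusted p = 0.0176), cyclic loess normalization (0.40, 0.0223) and an intensity trend (0.34, 0.00618). It also passed without the dimmest 25% of genes (0.34, limma adjusted p = 0.0376). With a crossed replicate block, added after seeing the data, it passed as well (0.34, limma adjusted p = 0.0293). It did not pass under the other 8 alternatives, the replicate block included (0.34, 0.0792), where the limma adjusted p was at most 0.404.

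CTSC, the dipeptidyl peptidase that activates serine proteases of granules, read 10.11 and 10.06 on the DZNep arrays, against 10.10 and 10.24 on the DMSO arrays. The groups overlapped. Its log2 fold change was −0.09 (limma adjusted p = 0.697, 95% interval −0.31 to 0.13), which was 0.01 under quantile normalization. CTSO, a less studied cysteine cathepsin, read 6.29 and 6.30 on the DZNep arrays, against 6.34 and 6.05 on the DMSO arrays. Here too the groups overlapped, since the DMSO arrays lay on either side of the DZNep arrays. Its log2 fold change was 0.10 (limma adjusted p = 0.715, 95% interval −0.16 to 0.36), and it was −0.05 without DMSO replicate 2.

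The 3 genes whose pattern over the 4 arrays was most like that of CTSK, the cathepsin with the largest change, were LPAR6, CYBB and GBP2. Their Euclidean distances to CTSK, on log2 values centred per gene, were 0.0761, 0.0881 and 0.149 log2 units. LPAR6 encodes a lysophosphatidic acid receptor, CYBB the catalytic subunit of the phagocyte oxidase, and GBP2 an interferon-induced GTPase. With 4 arrays in 2 groups, genes alike by this measure have similar log2 fold changes, which were 1.31 for LPAR6, 1.43 for CYBB and 1.38 for GBP2.

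Genes beside the cathepsins on the chromosomes were taken as the nearest protein-coding gene on each side in RefSeq order that was measured. Of 18 such neighbours that are not cathepsins, 1 was called higher and 0 lower (limma, with 1 lower at an unadjusted p under 0.05). Over all genes, 3.62% were called higher and 6.68% lower, so these counts do not set the neighbours apart. Their log2 fold changes ran over −0.23 to 0.45. The 1 that rose was PDGFC, a growth factor gene beside CTSO, at 0.45 (limma adjusted p = 0.0405), and it was named after its value was seen. ARNT, on the other side of CTSK from CTSS, had a log2 change of 0.07 (limma adjusted p = 0.776).

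**Figure D3:**
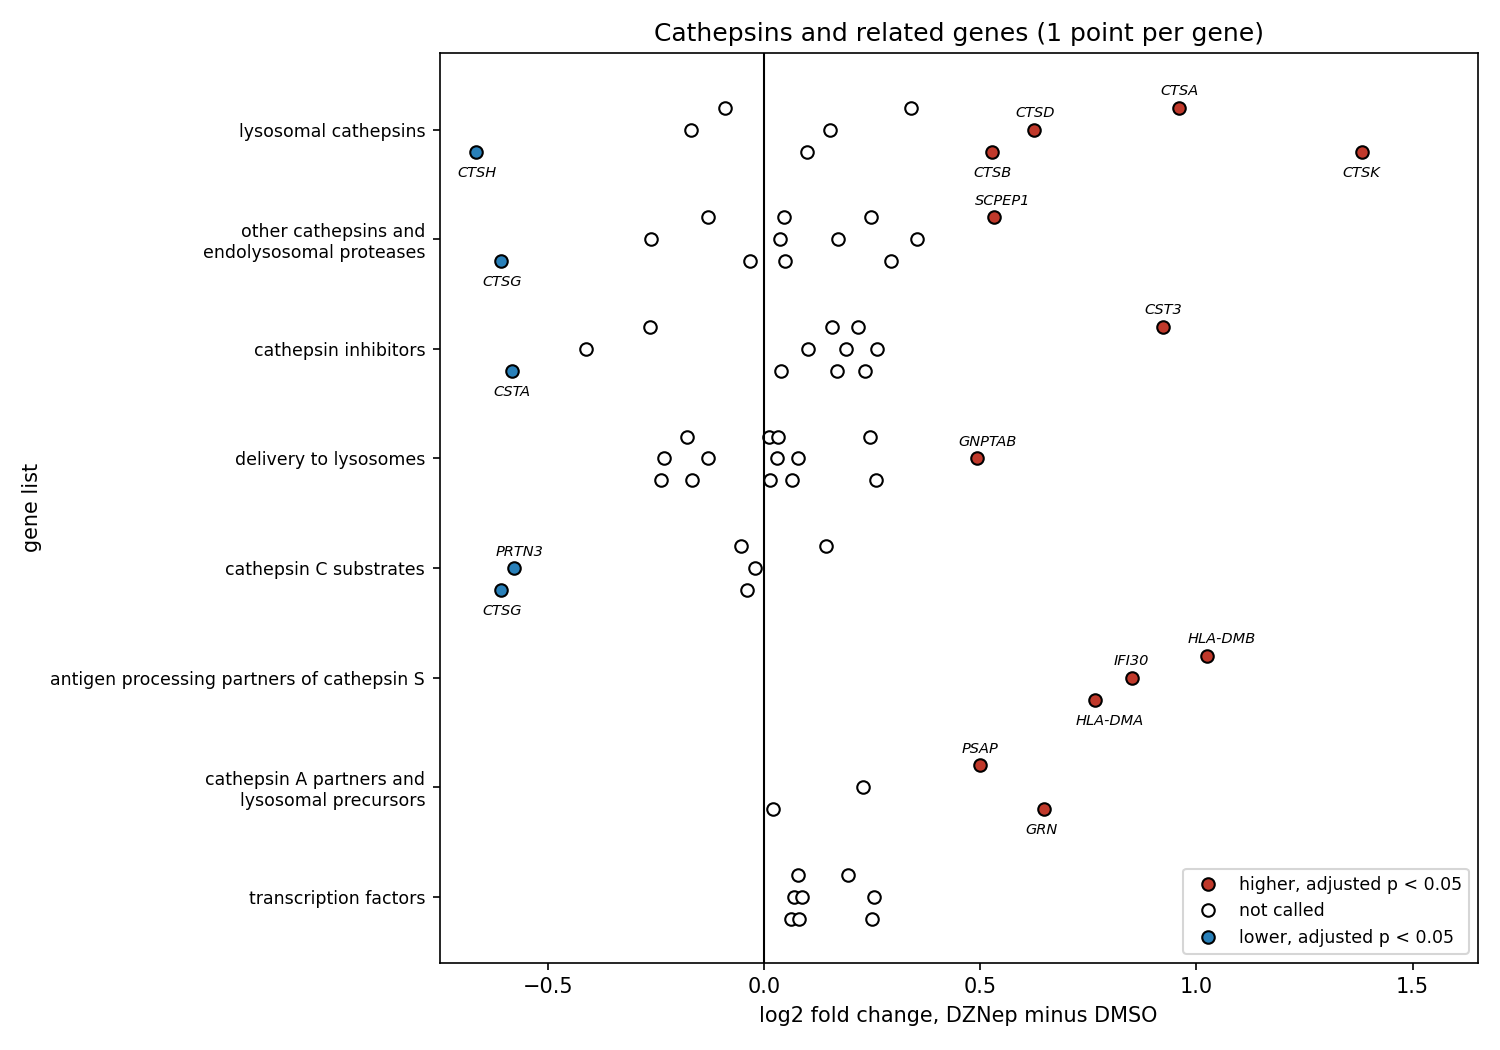
Log2 fold change (DZNep minus DMSO, x axis) of the 10 cathepsins (top row) and of 7 lists of related genes, with 1 point per measured gene from 2 arrays per group. Filled points are called and named. The 3 antigen processing genes lie between 0.76 and 1.02, and all 8 transcription factors lie between 0.06 and 0.25 without a call.

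Other cathepsins and related proteases were mostly not called. Of 12 cathepsins and endolysosomal proteases outside the 10, 1 rose and 1 fell, with a median log2 fold change of 0.05. For this list and those below, the shares called over all genes were 3.62% higher and 6.68% lower. SCPEP1, a serine carboxypeptidase related in sequence to cathepsin A, read 10.19 and 10.21 on the DZNep arrays, against 9.63 and 9.71 on the DMSO arrays. It rose by 0.53 on the log2 scale (limma adjusted p = 0.00768). CTSG, a serine protease of neutrophil granules that shares the cathepsin name, read 9.01 and 9.08 on the DZNep arrays, against 9.87 and 9.45 on the DMSO arrays. The log2 difference was −0.61 (limma adjusted p = 0.0215), a call that ended without DMSO replicate 1 at −0.40 (0.0504) and with 16 subtracted from every intensity at −0.62 (0.0551). The list held 3 called higher under each of quantile normalization, cyclic loess normalization and an intensity trend.

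Of 12 inhibitor genes, 1 rose, 1 fell and 10 were not called, with a median log2 fold change of 0.16. CST3, the secreted cystatin C, read 10.17 and 10.37 on the DZNep arrays, against 9.30 and 9.40 on the DMSO arrays. It was 1.90-fold higher (limma, log2 fold change 0.92, adjusted p = 0.000867). CSTA, the cytosolic cystatin A, read 9.07 and 8.96 on the DZNep arrays, against 9.82 and 9.38 on the DMSO arrays. The log2 difference was −0.58 (limma adjusted p = 0.0303), and the call ended without DMSO replicate 1 at −0.36 (0.0758) and with 16 subtracted at −0.60 (0.0709). CTSH, CTSG and CSTA were each highest on DMSO replicate 1. They are named together because their calls ended without that array, so this shows no pattern of the array. PRTN3, also called lower, was highest on DMSO replicate 2.

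Of 14 delivery genes measured, 1 rose and 0 fell (limma, with 3 higher and 2 lower at an unadjusted p under 0.05), and the median log2 fold change was 0.02. GNPTAB encodes the alpha and beta subunits of the transferase that begins the mannose 6-phosphate tag. It read 8.85 and 8.80 on the DZNep arrays, against 8.37 and 8.29 on the DMSO arrays, and rose by 0.49 (limma adjusted p = 0.0111). Without DZNep replicate 1 its value was 0.47 and the call ended (limma adjusted p = 0.083). The mannose 6-phosphate receptors M6PR and IGF2R, named after their values were seen, each had a log2 fold change of 0.01.

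Further lists were named after single cathepsins. The list for cathepsin S held genes of MHC class II antigen processing, in which it takes part. All 3 of its measured genes rose, while CTSS itself was not called. HLA-DMB and HLA-DMA, the chains of the peptide exchanger HLA-DM, had log2 fold changes of 1.02 (limma adjusted p = 0.000276) and 0.76 (0.00257). IFI30, the lysosomal thiol reductase GILT, rose by 0.85 (limma adjusted p = 0.00229). CD74, the invariant chain itself, and HLA-DRA and HLA-DRB1 had no probe set with a single symbol and were not used.

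Of 6 members of the serine protease family listed as substrates of cathepsin C, 2 fell and 0 rose (limma, with 0 higher at an unadjusted p under 0.05). They were PRTN3, proteinase 3, at −0.58 (limma adjusted p = 0.00937), and CTSG, which the list above also holds. PRTN3 read 10.96 and 10.87 on the DZNep arrays, against 11.38 and 11.60 on the DMSO arrays. Both DZNep values of PRTN3 lay below both DMSO values.

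Of 4 partners of cathepsin A and lysosomal precursors, 2 rose and 0 fell (limma, with 0 lower at an unadjusted p under 0.05). GRN, the granulin precursor, read 11.67 and 11.69 on the DZNep arrays, against 11.05 and 11.02 on the DMSO arrays, and rose by 0.65 (limma adjusted p = 0.00257). PSAP, the saposin precursor, rose by 0.50 (limma adjusted p = 0.0148), a call that ended without DZNep replicate 2 at 0.48 (0.0674). The partners that CTSA protects, NEU1 and GLB1, had log2 fold changes of 0.23 (limma adjusted p = 0.259) and 0.02 (0.943), and were named after their values were seen.

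Of 8 transcription factors tied to lysosomal or myeloid genes, 0 were called in either direction (limma, with 2 higher and 0 lower at an unadjusted p under 0.05). The largest values were 0.25 for TFEC (limma adjusted p = 0.176) and 0.25 for MITF (0.151), both relatives of TFEB. TFEB, a main activator of lysosomal genes, had a log2 change of 0.07 (limma adjusted p = 0.756, named after its value was seen).

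Of the 6 monocytic markers measured, 2 were called. LYZ (log2 fold change 0.53, limma adjusted p = 0.0114) and CSF1R (0.47, 0.0128) rose. CD14 at 0.33 (limma adjusted p = 0.133), SPI1 at 0.06 (0.787), CD68 at −0.38 (0.0826) and ITGAM at −0.22 (0.246) were not called. The summed intensity of the 6 was 9238 and 8781 on the DZNep arrays, against 6849 and 7163 on the DMSO arrays, and LYZ made up most of it. Without LYZ, the sum of the other 5 was 1983 and 2053 on the DZNep arrays, against 2291 and 2054 on the DMSO arrays. CD68, the brightest of these 5, read 9.51 and 9.64 on the DZNep arrays, against 10.11 and 9.80 on the DMSO arrays. Such sums follow the brightest gene, so neither describes the markers as a set. By gene, both DZNep arrays lay above both DMSO arrays for 4 of the 6 (LYZ, CSF1R, CD14 and SPI1), beside 25.9% of all genes. They lay below both for ITGAM and CD68, beside 23.9%. Among 23 markers of erythroid, megakaryocyte, T and NK, B, fibroblast and epithelial cells measured, 1 was called, DCN at 0.36 (limma adjusted p = 0.0445), which read 5.66 and 5.63 on the DZNep arrays and 5.23 and 5.34 on the DMSO arrays. Their part in the cathepsin values was not tested. In RNA from a bulk culture, a change in the share of cells of a type and a change in RNA per cell cannot be told apart.

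**Figure D4:**
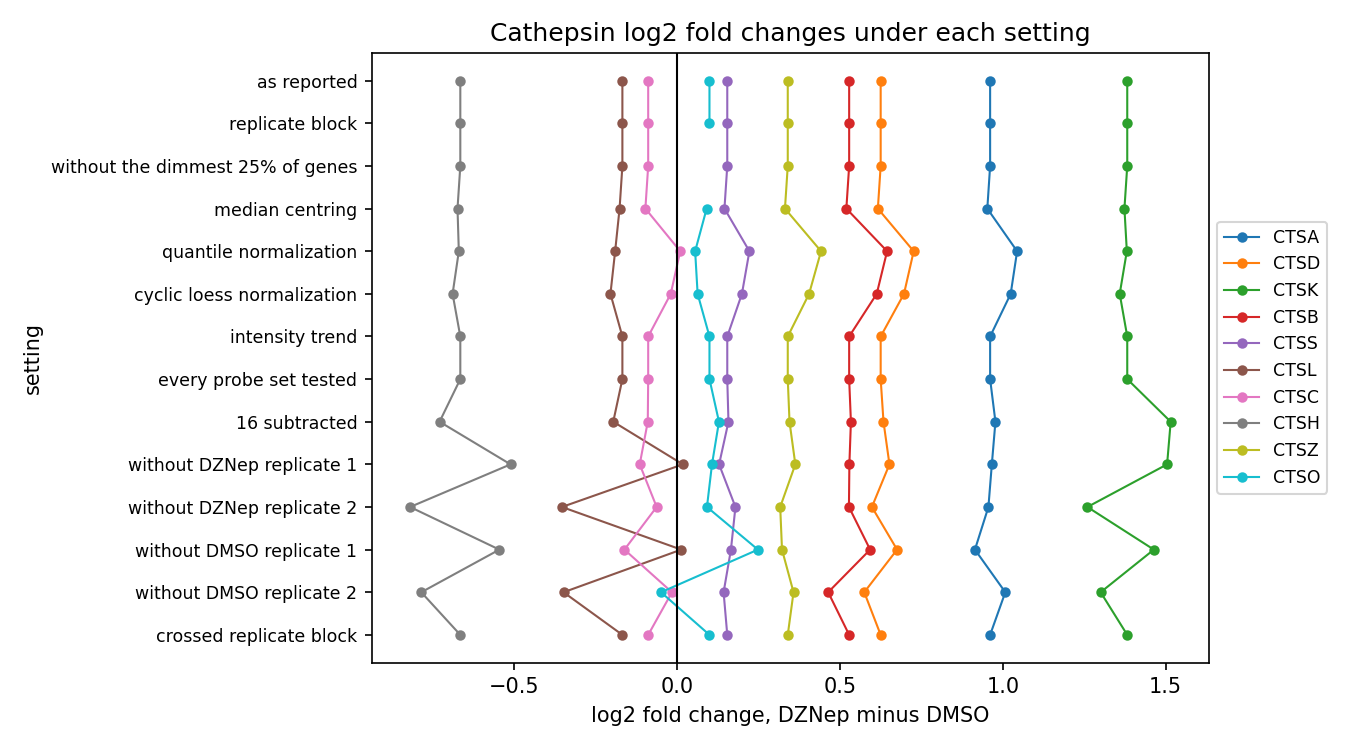
Log2 fold change (DZNep minus DMSO, x axis) of each cathepsin gene (coloured lines) as reported and under 13 alternative settings (rows). CTSK, CTSA, CTSD and CTSB stay above 0.46 in every row, CTSH stays below −0.51, CTSC, CTSL and CTSO cross 0, and CTSO has no point without the dimmest 25% of genes.

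CTSK, CTSA, CTSD and CTSB were called higher as reported and under all 13 alternatives run. Across these their log2 fold changes ran over 1.26 to 1.52 for CTSK, 0.91 to 1.04 for CTSA, 0.57 to 0.73 for CTSD and 0.46 to 0.64 for CTSB. The largest limma adjusted p among the alternatives was 0.0032 for CTSK, 0.00405 for CTSA, 0.0159 for CTSD and 0.0355 for CTSB. CTSH kept its direction under all 13, over −0.82 to −0.51, but its call ended without DMSO replicate 1. Both replicate blocks, the filter, the intensity trend and testing every probe set left these log2 fold changes unchanged by design. Leaving out an array cannot reverse a gene whose groups do not overlap. The directions under those settings are therefore no test of these genes.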

How the data were processed

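Total RNA of MOLM-14 cells was labelled with an Affymetrix whole-transcript sense target kit, per the labels' protocols. The authors summarised each array with RMA according to the submitters' processing notes, and the deposited values are linear intensities, 1 for each probe set. No source used here gives the RMA version or a genome build. The lowest intensity was 18.1 to 18.5 on every array, so a constant may have been added, which would shrink folds of dim genes.

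Log2 was taken with no pseudocount. Of 28869 probe sets, 19310 have 1 symbol in the platform annotation, and a gene is represented by its brightest one. No dim gene was removed. limma 3.58.1 in R 4.3.3 (lmFit, eBayes, group as the only term, two-sided) was run on 18377 genes with Benjamini-Hochberg adjustment. It had 2 residual and 7.18 prior degrees of freedom. The same fit was run on simulated data with changes of 1 log2 unit. No outcome of that run is given here, and it does not bear on smaller changes. Intervals are limma's at 95%. An exact permutation test of 2 arrays against 2 cannot give a p under 0.333.

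The members and lists were chosen with earlier results of these data known. The rule for names took all members, up to 4 called genes per related list (2 with the largest change where none was called), and the 3 genes most like the member with the largest change. Alternatives were a replicate block, a filter, 3 normalizations, an intensity trend, every probe set tested, 16 subtracted, each array left out, and, added after seeing the data, a crossed replicate block.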

Additional observations from a re-analysis of the deposited data

How the results depend on the processing

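Across the alternatives the count of cathepsins higher with DZNep was 4 or 5 and the count lower was 1, except 0 without DMSO replicate 1, where the loss was CTSH. With 1 array left out, 4 were higher each time and 0 to 1 lower, and the lone sample of a group was assumed to vary like the other group. The median log2 fold change of the cathepsins was 0.34 without the dimmest 25% of genes (which removed CTSO), 0.33 with quantile and 0.30 with cyclic loess normalization, and 0.25 to 0.28 with 1 array left out. Over all related lists 8 genes were higher and 3 lower, with 1 lower after 16 was subtracted and 1 to 5 lower with 1 array left out. Within single lists, counts ran over 1 to 3 proteases higher and 0 to 1 lower, 1 to 2 inhibitors higher and 0 to 3 lower, 0 to 1 delivery genes higher, 1 to 2 substrates of cathepsin C lower and 1 to 2 partners of cathepsin A or precursors higher. Directions reversed for CTSC with quantile normalization (0.0090), for CTSL (−0.35 to 0.017 with 1 array left out, above 0 without DZNep replicate 1 or DMSO replicate 1) and for CTSO (−0.050 to 0.25, below 0 without DMSO replicate 2). None of these 3 genes was called, and the cause was not tested. The replicate numbers were not taken to pair the samples: over genes, the replicate differences of both groups had a correlation of −0.22. With the replicate block 4 cathepsins were higher and 1 lower, and with the crossed replicate block 5 and 1. Over all genes, 665 were higher and 1227 lower, against 336 higher without DZNep replicate 2, 439 higher and 734 lower without DZNep replicate 1, and 1034 higher with the crossed block. With 2 arrays per group, small changes of CTSS, CTSL, CTSC and CTSO may have been missed.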
